A study of Homo sapiens with 18 samples.

Results

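The results below cover 10 genes of iron storage, iron uptake and ferroptosis, chosen by name from a table of 36576 genes: FTH1, FTL, TFRC, SLC11A2, ACO1, IREB2, FBXL5, NCOA4, ACSL4 and LPCAT3. All 10 were measured and all 10 had a mean of at least 1 FPKM (a read level corrected for gene length and for the depth of the library), as did 12224 genes in all. The cells were labelled A549, a human lung adenocarcinoma line, and were grown in DMEM/F-12. The 3 groups were untreated cells, cells given 10 mg/L BPQD for 24 h and cells given 100 mg/L TiO2 for 24 h, 2 nanomaterials whose doses differed. Each group had 3 input libraries (RNA before immunoprecipitation) and 3 libraries from precipitation with an antibody to N6-methyladenosine (m6A), a methyl mark on RNA, and the study asked how RNA methylation changed with each material. No label says that the replicates were separate cultures, so the p-values measure the spread between libraries, which may be technical.

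The label of the cells was checked against marker genes. Of 12 markers of A549 and of epithelium, 6 reached 1 FPKM in at least 1 library. The keratin KRT7 lay between 205.7 and 311.2 FPKM over the 9 input libraries, and KRT18 between 403.3 and 582.0. By contrast AKR1B10 stayed at or below 0.998 FPKM, AKR1C1 at or below 1.14 and ALDH1A1 at or below 0.116, although these enzymes are known for high expression in A549. Of 5 fibroblast markers, 4 reached 1 FPKM in at least 1 library. The stromal gene LUM was the highest, at 8.37 to 30.8 FPKM, while COL1A2 did not exceed 0.104. Of 4 endothelial markers only the cadherin CDH5 reached that level, at 1.14 to 3.73 FPKM. PECAM1, VWF and KDR did not exceed 0.186, 0.0948 and 0.0358 FPKM. The cells are therefore called here only by their label. Of 6 markers in the leukocyte list, which includes the hemoglobin genes HBA1 and HBB, CD68 alone reached a mean of 1 FPKM. It codes for a lysosomal protein abundant in macrophages. The pan-leukocyte gene PTPRC did not exceed 0.0346 FPKM, CD3E did not exceed 0.0456 and CD14 did not exceed 0.381. CD68 rose under TiO2, from 12.8, 11.4 and 10.8 FPKM in the controls to 20.1, 22.9 and 17.3 (0.73 ± 0.10 on a log2 scale, limma adjusted p = 0.000946). The summed leukocyte list is nearly all CD68 and so had to follow it. That sum was 11.3 to 13.3 FPKM in the controls, 11.9 to 12.8 under BPQD and 17.9 to 23.4 under TiO2. The CD68 rise runs beside those of FTH1, ACO1 and ACSL4 reported below. The summed level of the epithelial list was 1160 to 1247 FPKM in the control libraries, 856.4 to 876.3 under BPQD and 958.0 to 1053 under TiO2, and the part of either list in the results below was not tested. In such bulk libraries, fewer cells of a type and less RNA per cell cannot be told apart.

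Iron enters most cells bound to transferrin, which the transferrin receptor carries into endosomes, and DMT1 then moves the iron into the cytosol. Iron that is not used is stored inside ferritin, a shell of heavy (FTH1) and light (FTL) chains, and NCOA4 takes ferritin to the lysosome to release it. The iron regulatory proteins ACO1 and IREB2 bind hairpins called iron-responsive elements: when iron is scarce they block translation of the ferritin mRNAs through a hairpin in the 5′ UTR and protect TFRC mRNA through hairpins in its 3′ UTR. FBXL5 marks IREB2 for degradation when iron is plentiful. Iron also drives the oxidation of membrane lipids in ferroptosis, a form of cell death for which ACSL4 and LPCAT3 supply polyunsaturated phospholipids.

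Sequences near the transcript starts were taken from RefSeq (GRCh38.p14) for 9 of the 10 genes, FTH1 not among them, with 14 start sites in all. The stretches shown are the ferritin light chain hairpin loop, the TFRC core promoter and start, and the start of LPCAT3, which lies inside an m6A peak described below. Each is printed 5′ to 3′ on the transcript strand, and the capitals mark 1 motif in each stretch that has any: in FTL only the loop core CAGTG of the iron-responsive element, and in the TFRC stretches, in the order printed, the hypoxia response core ACGTG, the TATA box TATAAA and the m6A core GGAC.
FTL, bases 21 to 50 of the transcript, chr19:48965329-48965358, plus strand: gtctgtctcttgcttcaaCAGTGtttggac
TFRC, 100 to 71 bases before the start, chr3:196082161-196082190, minus strand: cctcgcgagcgtACGTGcctcaggaagtga
TFRC, 45 to 16 bases before the start, chr3:196082106-196082135, minus strand: gcggggccaggcTATAAAccgccggttagg
TFRC, bases 21 to 50 of the transcript, chr3:196082041-196082070, minus strand: ggcggctcgGGACggaGGACgcgctagtgt
LPCAT3, bases 21 to 50 of the transcript, chr12:7018427-7018456, minus strand: tggggggtccctgtggggctcccggagtta
On the transcript strand, CAGTG stood within the first 50 bases in FTL, where it began at base 39, and at 1 start site of NCOA4, against 6.48% of the 35116 promoters in the table. GGAC stood there in FTL, where it began at base 47 and is left in lower case above, and in TFRC, against 18.9% of promoters, and the LPCAT3 stretch holds none. On either strand of the 250 bases before the start, ACGTG stood in FBXL5, FTL and TFRC, against 18.5% of promoters. The antioxidant response core TGACNNNGC stood there in FBXL5, against 10.9%, and TATAAA stood there on the transcript strand in TFRC, against 6.80%. Such matches describe the letters only.

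Ferritin was the most abundant message of the set, and the mRNAs of both chains were higher under TiO2 than in control cells. Under BPQD the light chain mRNA was slightly lower. FTH1 (ENSG00000167996, chr11:61959718-61967634, minus strand) had the highest mean FPKM of all genes and FTL (ENSG00000087086, chr19:48965309-48966879, plus strand) the second highest. FTH1, the heavy chain that oxidises iron for storage, stood at 2972, 1538 and 2518 FPKM in the control libraries, at 2361, 2369 and 2346 under BPQD, and at 3867, 3857 and 3925 under TiO2. All 3 TiO2 libraries lay above all 6 others, the BPQD libraries lay inside the control range, and control replicate 2 stood far below the other controls. FTH1 rose under TiO2 by 0.78 ± 0.21 (SE) on the log2(FPKM + 1) scale, in which all log2 fold changes of expression here are given (limma over all 9 libraries, adjusted p = 0.0206). It did not pass the test under BPQD (0.06 ± 0.21, 95% interval -0.42 to 0.54, limma adjusted p = 0.831).

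The FTH1 calls depend on single libraries. Without control replicate 2 the BPQD value turned to -0.21 (limma adjusted p = 0.0334), and the TiO2 value became 0.51 (limma adjusted p = 0.00171). With only the 6 libraries compared, the TiO2 value of 0.78 missed the threshold (limma adjusted p = 0.0541), as it did without TiO2 replicate 1 (0.78, adjusted p = 0.0520), replicate 2 (0.79, adjusted p = 0.0543) or replicate 3 (0.77, adjusted p = 0.0551). It also missed it with no filter on low values (adjusted p = 0.0586) and under quantile normalization (0.46, adjusted p = 0.145). Control replicate 2 was not unusual over the transcriptome: 1.84% of tested genes lay there more than 0.5 log2 units outside the other 2 libraries of the group, against 1.99 to 2.44% in the other 8 input libraries.

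FTL, the light chain that forms the mineral core, was far tighter between replicates. It stood at 2593, 2595 and 2552 FPKM in the controls, at 2303, 2290 and 2271 under BPQD, and at 3052, 2891 and 2922 under TiO2, so that no 2 groups overlapped. It fell under BPQD by 0.17 ± 0.02 on the log2 scale (limma adjusted p = 0.000435) and rose under TiO2 by 0.20 ± 0.02 (adjusted p = 0.000319). Under quantile normalization, which keeps only ranks, the BPQD difference was 0: FTL ranked 4, 3 and 3 among all genes in the controls and 3, 3 and 4 under BPQD. The ratio of FTH1 to FTL was 1.15, 0.593 and 0.987 in the control libraries, 1.02 to 1.03 under BPQD and 1.27 to 1.34 under TiO2. The TiO2 libraries thus had the most FTH1 mRNA per FTL mRNA, and protein was not measured here. Together the ferritin genes made up 2.22% ± 0.32 (SD, n = 3) of the summed FPKM of the untreated cells, 2.18% ± 0.02 with BPQD and 3.11% ± 0.04 with TiO2.

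**Figure D1:**
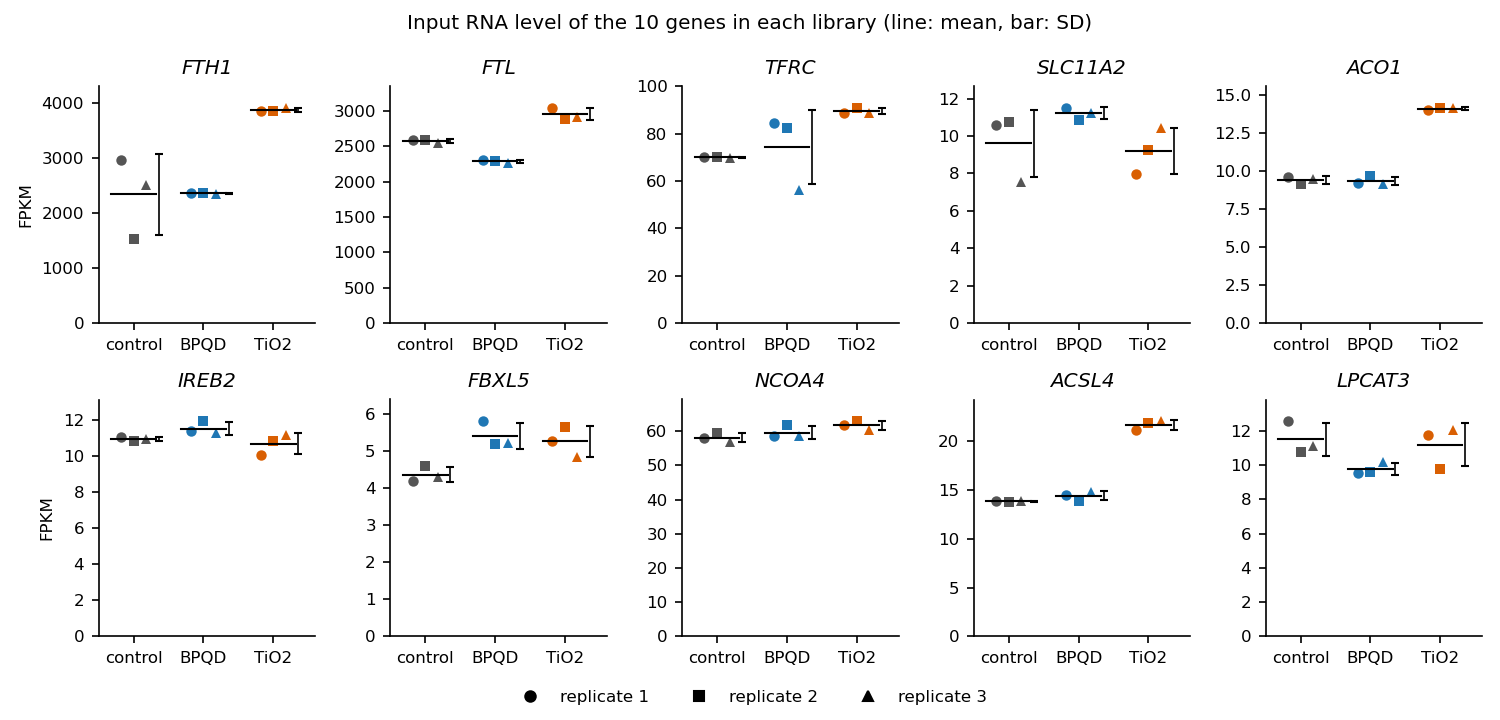
FPKM of the 10 genes in the 9 input libraries, 1 panel per gene with a linear axis from 0; symbols mark the replicates, the line is the mean and the bar the SD (n = 3). FTH1 in control replicate 2 (1538 FPKM) and TFRC in BPQD replicate 3 (56.2 FPKM) stand apart from their groups, and ACO1 and ACSL4 separate TiO2 from both other groups.

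Ferritin heavy chain has many processed pseudogenes, intronless copies that can take up reads of the parent gene, and these were also higher under TiO2. The table held 20 FTH1 pseudogenes, of which 8 had a mean of at least 1 FPKM. Their sum was 144.6 ± 1.57 FPKM (SD, n = 3) in the controls, 132.3 ± 5.61 with BPQD and 211.1 ± 7.10 with TiO2, or 4.85 to 9.31% of FTH1 in the same library. Under TiO2, 5 of the 8 rose and none fell (limma), where 17.3% of all tested genes rose and 20.5% fell. Under BPQD none of the 8 passed the test, where 44.0% of all tested genes did. Copies that take up reads of 1 parent gene may not be independent of each other. FTH1P2 stood at 42.4, 44.5 and 43.5 FPKM in the controls, at 40.6, 42.1 and 34.3 under BPQD and at 70.9, 63.6 and 61.7 under TiO2. FTH1P8 stood at 40.2, 37.0 and 38.1 FPKM in the controls, at 39.4, 33.6 and 34.7 under BPQD and at 58.0, 57.2 and 56.8 under TiO2. In both, every TiO2 library lay above every other library. In control replicate 2, where FTH1 was low, the summed pseudogenes stood at 143.2 FPKM, against 144.3 and 146.3 in the other controls. With the pseudogenes added to FTH1 the TiO2 difference was 0.77 (limma adjusted p = 0.0171). How the authors' counting split reads between parent and copies was not tested. The shares given are ratios of FPKM, not of reads, so how uncertain the FTH1 and FTL levels are is not known. FTL had 6 pseudogenes, which summed to 0.127 to 0.192% of FTL.

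**Figure D2:**
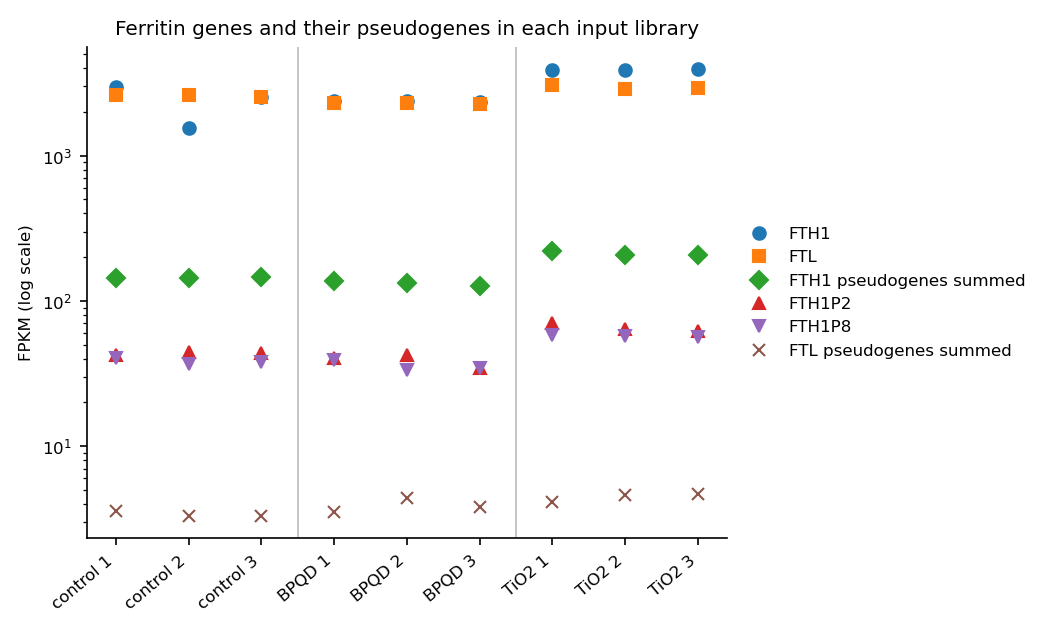
FPKM on a log axis of FTH1, FTL, their summed pseudogenes and the 2 most abundant FTH1 pseudogenes in each of the 9 input libraries. The summed FTH1 pseudogenes stay between 126.5 and 146.3 FPKM in control and BPQD libraries and between 206.8 and 219.3 under TiO2, and they do not share the low FTH1 value of control replicate 2.

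Of the uptake genes, TFRC was higher in all TiO2 libraries without passing the test, and SLC11A2 passed in neither comparison. TFRC (ENSG00000072274, chr3:196027183-196082096, minus strand) codes for the transferrin receptor. It stood at 69.9, 70.3 and 69.7 FPKM in the controls, at 84.3, 82.5 and 56.2 under BPQD, and at 88.9, 91.0 and 88.8 under TiO2. The TiO2 libraries lay above all others, and BPQD replicate 3 lay below every control while the other 2 BPQD libraries lay above them. The difference was 0.35 ± 0.14 under TiO2 (95% interval 0.03 to 0.67, limma adjusted p = 0.0801) and 0.06 ± 0.14 under BPQD (limma adjusted p = 0.740). Without BPQD replicate 3, which widens the spread that the fit shares across groups, both passed, with 0.35 under TiO2 (limma adjusted p = 7.35e-05) and 0.25 under BPQD (limma adjusted p = 0.000331). With only the 6 libraries of control and TiO2, TFRC also passed (limma adjusted p = 0.000379), and the authors' deposited table gives it a log2 ratio of 0.36 with q = 0.0131. In BPQD replicate 3 as a whole, 2.17% of tested genes stood more than 0.5 log2 units outside the other 2 libraries, within the range of the others.

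SLC11A2 (ENSG00000110911, chr12:50979401-51028566, minus strand) codes for DMT1. It stood at 10.6, 10.7 and 7.53 FPKM in the controls, at 11.5, 10.9 and 11.2 under BPQD, and at 7.97, 9.25 and 10.4 under TiO2. The BPQD libraries were all above the controls, of which replicate 3 was low, and the TiO2 libraries overlapped the controls. The differences were 0.22 ± 0.13 under BPQD (95% interval -0.09 to 0.53, limma adjusted p = 0.229) and -0.05 ± 0.13 under TiO2 (95% interval -0.36 to 0.27, limma adjusted p = 0.816). Per length, TFRC was 5.01 to 11.1 times as abundant as SLC11A2 over the 9 libraries.

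Between the iron regulatory proteins, ACO1 rose under TiO2 and IREB2 passed the test under neither material. ACO1 (ENSG00000122729, chr9:32384603-32454769, plus strand), IRP1, is the cytosolic aconitase when it holds an iron-sulfur cluster and binds RNA when it does not. It stood at 9.60, 9.11 and 9.46 FPKM in the controls, at 9.21, 9.63 and 9.12 under BPQD, and at 14.0, 14.2 and 14.1 under TiO2. Control and BPQD libraries overlapped, and the TiO2 libraries stood clear of both. ACO1 rose under TiO2 by 0.54 ± 0.03 (limma adjusted p = 1.84e-05), whereas under BPQD its difference was -0.01 ± 0.03 (95% interval -0.08 to 0.06, limma adjusted p = 0.820).

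IREB2 (ENSG00000136381, chr15:78437431-78501453, plus strand), IRP2, is controlled mainly through the stability of its protein. It stood at 11.1, 10.9 and 11.0 FPKM in the controls, at 11.4, 12.0 and 11.3 under BPQD, and at 10.1, 10.8 and 11.2 under TiO2. The TiO2 libraries overlapped the controls, and the BPQD libraries lay just above them (0.07 ± 0.04, 95% interval -0.03 to 0.16, limma adjusted p = 0.228). The TiO2 difference was -0.03 ± 0.04 (95% interval -0.13 to 0.06, limma adjusted p = 0.559). The ratio of ACO1 to IREB2 was 0.837 to 0.866 in the controls, 0.805 to 0.809 with BPQD and 1.26 to 1.39 with TiO2. ACO1 was thus the less abundant message per length in control and BPQD libraries and the more abundant one in TiO2 libraries.

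FBXL5 (ENSG00000118564, chr4:15604539-15681679, minus strand) was the member called higher under both materials. It is the subunit by which an SCF ubiquitin ligase recognises IREB2. Its levels were low, at 4.19, 4.59 and 4.30 FPKM in the controls, 5.80, 5.17 and 5.22 under BPQD, and 5.27, 5.65 and 4.84 under TiO2. Neither treated group overlapped the controls, and the treated groups overlapped each other. FBXL5 rose by 0.26 ± 0.06 under BPQD (limma adjusted p = 0.0115) and by 0.22 ± 0.06 under TiO2 (limma adjusted p = 0.0246). The authors' own expression test did not call it. Their deposited log2 ratios are 0.31 under BPQD (q = 0.190) and 0.27 under TiO2 (q = 0.334). The TiO2 call was lost with no filter on low values (limma adjusted p = 0.0642) and without control replicate 1 (0.20, adjusted p = 0.0749), control replicate 3 (0.21, adjusted p = 0.0677), TiO2 replicate 1 (0.22, adjusted p = 0.0631) or TiO2 replicate 2 (0.18, adjusted p = 0.0750). Both comparisons share the control libraries.

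NCOA4 (ENSG00000266412, chr10:46005088-46030714, minus strand), the ferritin cargo receptor, differed little. It stood at 57.9, 59.5 and 56.9 FPKM in the controls, at 58.6, 61.7 and 58.6 under BPQD, and at 61.8, 63.0 and 60.5 under TiO2. The TiO2 libraries were above all controls by a small margin, and the BPQD libraries overlapped both groups. The differences were 0.04 ± 0.03 under BPQD (95% interval -0.03 to 0.11, limma adjusted p = 0.352) and 0.09 ± 0.03 under TiO2 (95% interval 0.02 to 0.16, limma adjusted p = 0.0510). The latter passed under 6 of 18 alternatives, with adjusted p between 0.0211 and 0.145 over all of them.

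The lipid genes of ferroptosis parted. ACSL4 (ENSG00000068366, chrX:109624244-109733403, minus strand), which activates arachidonic and adrenic acid with coenzyme A, stood at 13.9, 13.8 and 13.9 FPKM in the controls, at 14.5, 13.9 and 14.8 under BPQD, and at 21.2, 21.9 and 22.1 under TiO2. All TiO2 libraries stood clear of the other 6, while control and BPQD libraries overlapped. ACSL4 rose under TiO2 by 0.61 ± 0.03 (limma adjusted p = 1.04e-05), and its difference under BPQD was 0.05 ± 0.03 (95% interval -0.01 to 0.12, limma adjusted p = 0.182). LPCAT3 (ENSG00000111684, chr12:6976185-7018477, minus strand) inserts such fatty acids into lysophospholipids. It stood at 12.6, 10.8 and 11.1 FPKM in the controls, at 9.56, 9.62 and 10.2 under BPQD, and at 11.8, 9.77 and 12.0 under TiO2. The BPQD libraries lay below all controls, and the TiO2 libraries overlapped both groups. LPCAT3 did not pass the test under BPQD (-0.21 ± 0.08, limma adjusted p = 0.0750), though it did with only the 6 libraries compared (adjusted p = 0.0404) and without TiO2 replicate 2 (adjusted p = 0.0246). Under TiO2 its difference was -0.04 ± 0.08 (95% interval -0.23 to 0.16, limma adjusted p = 0.757). On the opposite strand of LPCAT3 the annotation holds EMG1 and C1S, with means of 14.2 and 6.93 FPKM, and on that of FTH1 it holds BEST1, with 6.28 FPKM. Whether the counting used strand is not given in the sources used here, so reads of LPCAT3 and these neighbours may be mixed.

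**Figure D3:**
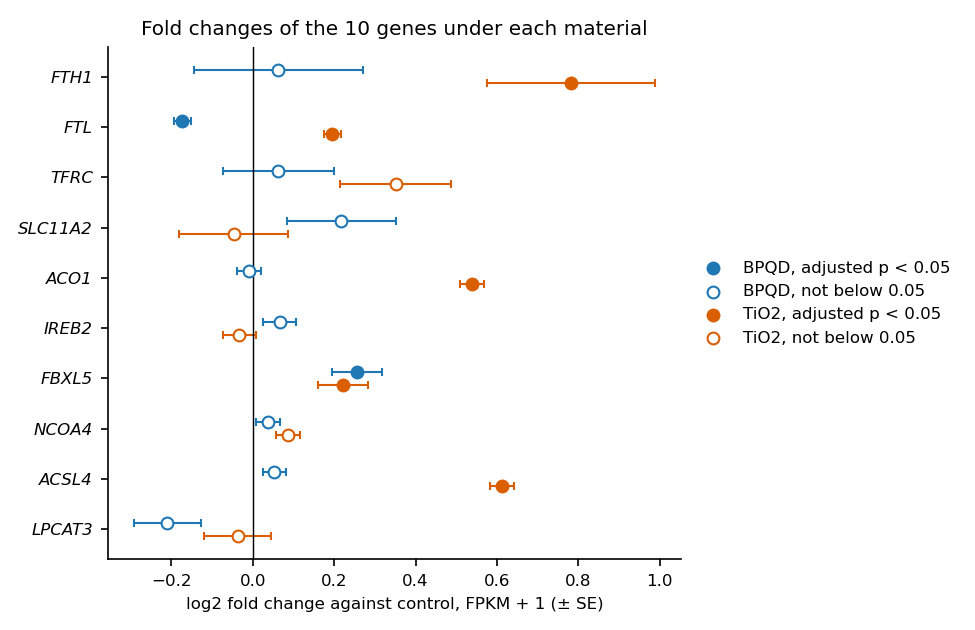
Log2 fold change (FPKM + 1) of each gene against control under BPQD and TiO2, with the SE from limma over all 9 libraries; filled points have an adjusted p below 0.05. Under TiO2 FTH1, FTL, ACO1, FBXL5 and ACSL4 are filled to the right of 0, and under BPQD only FBXL5 (right) and FTL (left) are filled.

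Counted over the set, 1 of the 10 genes rose and 1 fell under BPQD, where 44.0% of all 12224 tested genes passed the test (20.6% higher and 23.4% lower). Under TiO2, 5 rose and none fell, where 37.7% of all genes passed (17.3% higher and 20.5% lower). The median log2 fold change of the 10 was 0.06 under BPQD and 0.21 under TiO2, against -0.01 and -0.02 over all tested genes. Rescaling FPKM to TPM added IREB2, NCOA4 and ACSL4, each of them higher, to the calls under BPQD. That made 5 in all, 4 higher and 1 lower (FTL). TPM also moved the share of higher genes among all BPQD calls from 46.9 to 58.3%; the summed FPKM was 212891 to 213976 in BPQD libraries and 221580 to 222818 in controls.

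BPQD and TiO2 libraries were also compared directly, at doses that differed. FTH1 (-0.72 ± 0.21, limma adjusted p = 0.0284), FTL (-0.37 ± 0.02, adjusted p = 1.54e-05), ACO1 (-0.55 ± 0.03, adjusted p = 1.36e-05) and ACSL4 (-0.56 ± 0.03, adjusted p = 1.17e-05) were lower under BPQD, none was higher, and 37.6% of all genes passed (19.0% higher and 18.6% lower). The FTH1 call was lost without any 1 of the BPQD or TiO2 libraries (limma adjusted p = 0.0672 to 0.0712) and with no filter on low values (adjusted p = 0.0611). Under quantile normalization the FTH1 difference fell to -0.05 (limma adjusted p = 0.874). FBXL5 did not pass (0.03 ± 0.06, 95% interval -0.11 to 0.18, limma adjusted p = 0.701), nor did TFRC (-0.29 ± 0.14, 95% interval -0.61 to 0.03, adjusted p = 0.139), which passed without BPQD replicate 3 (-0.10, adjusted p = 0.0120).

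The m6A readout came from the authors' deposited tables, which list for each material the peaks with a log2 fold change of m6A enrichment against control and a p-value, and give no value per library. Their fold changes and p-values are the authors' own, with no SD or n here. The annotation of each peak (5′ UTR, 3′ UTR) is also theirs, and peaks run from a start to an end that may span introns. For BPQD 6 peaks were listed in 5 of the 10 genes and for TiO2 5 peaks in 4, while 53.6 and 50.3% of tested genes had any peak there. FTL, ACO1, IREB2, NCOA4 and ACSL4 had no listed peak in either table, so FTL, ACO1 and ACSL4, which rose under TiO2, have no m6A value. At the authors' p below 0.05, 5 of the 6 peaks passed under BPQD, 1 higher and 4 lower, where 64.8% of all listed peaks passed (37.7% higher and 27.1% lower). Under TiO2, 4 of the 5 passed, 3 higher and 1 lower, where 64.1% of all passed (40.3% higher and 23.8% lower). At the authors' p below 0.01 the counts were 4 lower and none higher under BPQD, and 3 higher and none lower under TiO2. The share of all listed peaks passing at 0.01 was not computed, so these counts have no background to be read against.

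FTH1 had a single peak, in its 5′ UTR at the start of the gene (chr11:61967041-61967634), listed in the BPQD table only. The authors' deposited table gives it a log2 fold change of -0.19 with p = 1e-155, the eighth smallest p of 14903 peaks, but only 17.3% of those peaks had a smaller absolute fold change. The small p therefore stands beside a small difference in the most abundant message. The control group holds the library with the low FTH1 input value, and its part in this peak was not tested. The authors' deposited BPQD table also lists 5 peaks in FTH1 pseudogenes, with log2 fold changes of 0.30 to 4.04, all opposite in sign to that of FTH1. At the authors' p below 0.05, 2 of these passed, FTH1P16 (1.23, p = 0.000135) and FTH1P26 (4.04, p = 0.0427), both named after their values were seen. The authors' FDR was 0.00158 for FTH1P16 and 0.153 for FTH1P26. Neither was expressed highly enough to be among the 8 FTH1 pseudogenes tested above, so both fold changes rest on scarce transcripts. Whether reads of FTH1 itself entered these peaks was not tested.

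TFRC had a 3′ UTR peak in both tables. The authors' deposited tables give -0.10 (p = 0.000794) for chr3:196051844-196052173 under BPQD and 0.08 (p = 0.00316) for chr3:196051814-196052173 under TiO2. The signs were opposite, both values were small (3.94 and 2.21% of the peaks in each table had a smaller absolute change), both share the control libraries, and the difference between them was not tested. A second TFRC peak, annotated 5′ UTR (chr3:196075325-196081886, 6562 bases), had -0.20 (p = 3.31e-06) in the authors' deposited BPQD table. It began 210 bases inside the gene, and so outside the TFRC start printed above.

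SLC11A2 had a 3′ UTR peak at the same position in both tables (chr12:50988048-50990704). In the authors' deposited tables it was higher under BPQD (0.15, p = 0.0158) and under TiO2 (0.23, p = 0.000447). A second 3′ UTR peak near the end of the gene (chr12:50979820-50979999) was listed for TiO2 alone. In the authors' deposited table this peak was lower (-0.57, p = 0.0105). The 2 SLC11A2 peaks of the TiO2 table thus moved in opposite directions, while the SLC11A2 input level under TiO2 overlapped the controls.

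FBXL5 had peaks at opposite ends of the gene. In the authors' deposited BPQD table a 5′ UTR peak (chr4:15681291-15681649) was lower (-0.47, p = 0.000933), and in their TiO2 table a 3′ UTR peak of 13675 bases (chr4:15612246-15625920) was higher (0.29, p = 3.24e-05). The FBXL5 start searched for motifs above lies elsewhere, with its first 50 bases at chr4:15655308-15655357, and neither peak overlaps those bases. LPCAT3 had a 5′ UTR peak in the BPQD table (chr12:7018357-7018477, -0.49, p = 0.0851) and a 3′ UTR peak in the TiO2 table (chr12:6976215-6976305, -0.24, p = 0.158), neither of which passed in the authors' deposited values. The 5′ UTR peak covers the first 50 bases of the LPCAT3 transcript, part of which is printed above. Only the SLC11A2 and TFRC 3′ UTR peaks were shared by both tables (at least 1 base in common), or 2 of the 6 and 2 of the 5. Over all genes, 49.6% of the BPQD peaks and 57.3% of the TiO2 peaks overlapped a peak of the other table.

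**Figure D4:**
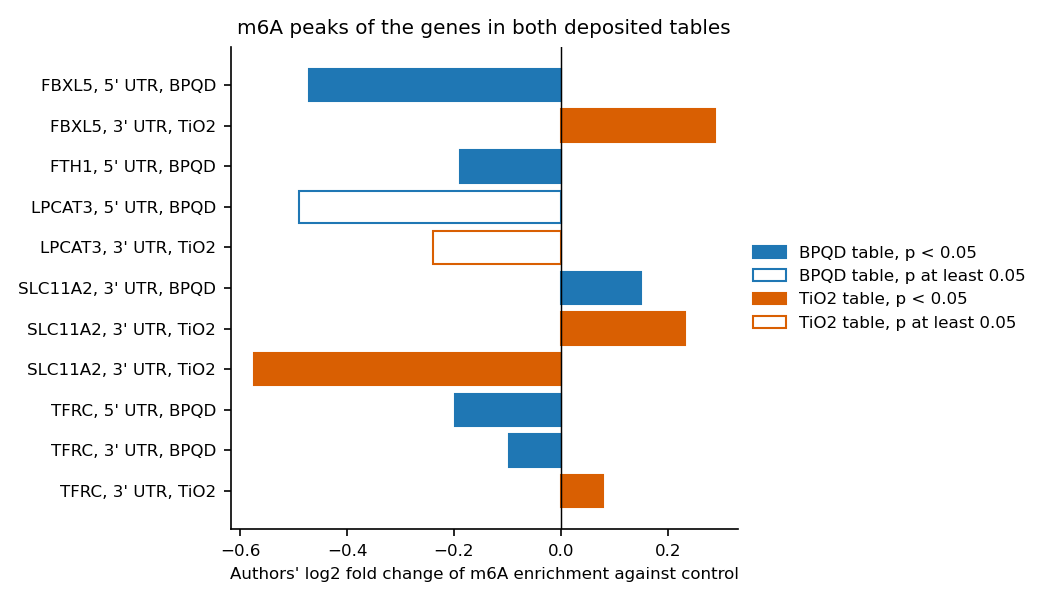
The authors' deposited log2 fold change of m6A enrichment against control for every peak of the 10 genes, named by gene, annotated region and table, in order from the gene start; filled bars have the authors' p below 0.05. Of the passing peaks, those in the BPQD table are lower except in SLC11A2, and those in the TiO2 table are higher except the second SLC11A2 peak (-0.57).

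The surrounding pathways were read from 12 lists with 128 genes besides the 10, of which 103 were tested. Under BPQD 14 of the 103 rose and 30 fell (median -0.10), and under TiO2 23 rose and 18 fell (median 0.04). These calls made up 42.7 and 39.8% of the 103, near the 44.0 and 37.7% over all tested genes, so their number does not set the lists apart. List by list, the share called ran from 22.2 to 80% under BPQD and from 20 to 100% under TiO2, in lists of 2 to 18 tested genes. The genes named here come from the 3 called genes with the largest absolute change in each list and comparison, and not all of those are named. Both comparisons share the control libraries.

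Among 10 other genes of iron uptake and reduction, 1 rose and 3 fell under BPQD, and 3 rose and 2 fell under TiO2. SCARA5, a receptor that takes up ferritin, fell from 14.8, 15.0 and 15.1 FPKM in the controls to 6.19, 5.80 and 6.11 under BPQD (-1.18 ± 0.03, limma adjusted p = 1.22e-06) and to 7.78, 8.22 and 8.05 under TiO2 (-0.82 ± 0.03, limma adjusted p = 4.51e-06). It was the named uptake gene that fell under both materials. STEAP3, the endosomal ferrireductase, fell under BPQD by 0.18 ± 0.04. Under TiO2 the metal importer SLC39A8 rose by 0.22 ± 0.04 and the metalloreductase STEAP4 by 0.21 ± 0.03.

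Of the 2 tested iron export genes, CP, the ferroxidase ceruloplasmin, fell under BPQD (-0.52 ± 0.04, limma adjusted p = 6.75e-05) and rose under TiO2 (0.35 ± 0.04, limma adjusted p = 0.000541). Its level was low, at 1.31 to 1.33 FPKM in the controls, 0.565 to 0.687 under BPQD and 1.94 to 1.98 under TiO2. Of 13 heme genes, 6 fell and none rose under BPQD, and 2 rose and 1 fell under TiO2. HMOX1, which frees iron from heme, followed the same directions as CP, with -0.56 ± 0.04 under BPQD (limma adjusted p = 4.31e-05) and 0.16 ± 0.04 under TiO2 (limma adjusted p = 0.0156, lost without control replicate 1 at 0.0515). ALAD, an early enzyme of heme synthesis, fell under both (-0.27 ± 0.03 and -0.19 ± 0.03).

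Of 7 genes of iron chaperoning and ferritin trafficking, 2 rose and 1 fell under BPQD, and 2 rose and 2 fell under TiO2. PCBP1, which delivers iron to ferritin, rose under BPQD by 0.21 ± 0.02. The ubiquitin ligase HERC2, which acts on NCOA4, fell under TiO2 by 0.30 ± 0.03, and the autophagy receptor TAX1BP1 rose by 0.30 ± 0.08 (limma adjusted p = 0.0206, lost without control replicate 1 at 0.0636 and without TiO2 replicate 1 at 0.0634). Of 18 genes of mitochondrial iron and iron-sulfur assembly, 2 rose and 3 fell under BPQD, and 2 rose and 2 fell under TiO2. The iron-sulfur assembly factor ISCA2 fell under BPQD by 0.29 ± 0.05, and its partner ISCA1 rose under TiO2 by 0.27 ± 0.04. Of 9 genes of cytosolic iron-sulfur assembly, none rose and 2 fell under BPQD, and none rose and 5 fell under TiO2, the largest being NUBP1 under BPQD (-0.40 ± 0.04) and CIAO3 under TiO2 (-0.23 ± 0.05).

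Of the 5 genes of the SCF ligase with which FBXL5 works, 2 rose and 2 fell under BPQD, and 1 rose under TiO2. The scaffold CUL1 rose under both, by 0.27 ± 0.02 (limma adjusted p = 8.74e-05) and 0.22 ± 0.02 (limma adjusted p = 0.000273). Of 5 other mRNAs listed for an iron-responsive element, 1 rose and 2 fell under BPQD, and 2 rose and 1 fell under TiO2. EPAS1, the hypoxia factor HIF-2 alpha, rose from 34.1, 32.4 and 33.2 FPKM in the controls to 44.0, 44.1 and 43.6 under BPQD and to 45.0, 46.0 and 45.1 under TiO2. Its changes were 0.39 ± 0.02 and 0.44 ± 0.02 (limma adjusted p = 1.78e-05 and 1.48e-05). SDHB, an iron-sulfur subunit of succinate dehydrogenase, fell under BPQD (-0.12 ± 0.02) and rose under TiO2 (0.16 ± 0.02), the directions of FTL. Whether the human mRNAs of this list, SDHB among them, carry the element was not checked.

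Of 15 ferroptosis defence genes, 3 rose and 4 fell under BPQD, and 3 rose and 3 fell under TiO2. GPX4, the peroxidase that reduces lipid hydroperoxides, stood at 77.5, 79.4 and 80.9 FPKM in the controls, at 48.1, 46.5 and 48.6 under BPQD, and at 72.5, 68.8 and 74.4 under TiO2. The BPQD libraries were the lowest by a wide gap. SLC7A11, the cystine carrier that feeds glutathione synthesis, stood at 6.60, 6.15 and 6.59 FPKM in the controls, at 10.8, 11.1 and 10.7 under BPQD, and at 8.29, 8.59 and 8.16 under TiO2, with no overlap between groups. It rose under TiO2 by 0.33 ± 0.03 (limma adjusted p = 0.000301). NFE2L2, the transcription factor NRF2, rose under both materials, by 0.40 ± 0.03 and 0.29 ± 0.03 (limma adjusted p = 4.10e-05 and 0.000239).

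Of 8 ferroptosis promoting genes, 1 rose and 1 fell under BPQD, and 3 rose and none fell under TiO2. SAT1, which acetylates polyamines, stood at 7.40, 8.03 and 7.31 FPKM in the controls, at 8.16, 7.30 and 6.99 under BPQD, and at 12.2, 12.1 and 12.0 under TiO2 (0.61 ± 0.06 under TiO2, limma adjusted p = 0.000155). Control and BPQD libraries overlapped and TiO2 libraries stood above both, as for ACSL4 and ACO1. POR, an oxidoreductase that promotes lipid peroxidation, fell under BPQD by 0.40 ± 0.04, and the mitochondrial channel VDAC3 rose under TiO2 by 0.30 ± 0.03.

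Both tested relatives of ACSL4 rose under TiO2. ACSL3, which activates monounsaturated fatty acids, rose by 0.56 ± 0.09 (limma adjusted p = 0.00280) and ACSL1 by 0.33 ± 0.07 (limma adjusted p = 0.00648). Under BPQD ACSL3 rose by 0.31 ± 0.09 (limma adjusted p = 0.0303), a call lost without control replicate 3 (0.0839) and without BPQD replicate 2 (0.0891) or 3 (0.0850). Of 9 genes related to LPCAT3 or supplying its substrates, 1 rose and 5 fell under BPQD, and 2 rose and 2 fell under TiO2. MBOAT7, which inserts arachidonate into phosphatidylinositol, fell under both (-0.41 ± 0.05 and -0.31 ± 0.05). LPCAT2 fell under BPQD by 0.32 ± 0.05, and the desaturase FADS1 rose under TiO2 by 0.30 ± 0.03.

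**Figure D5:**
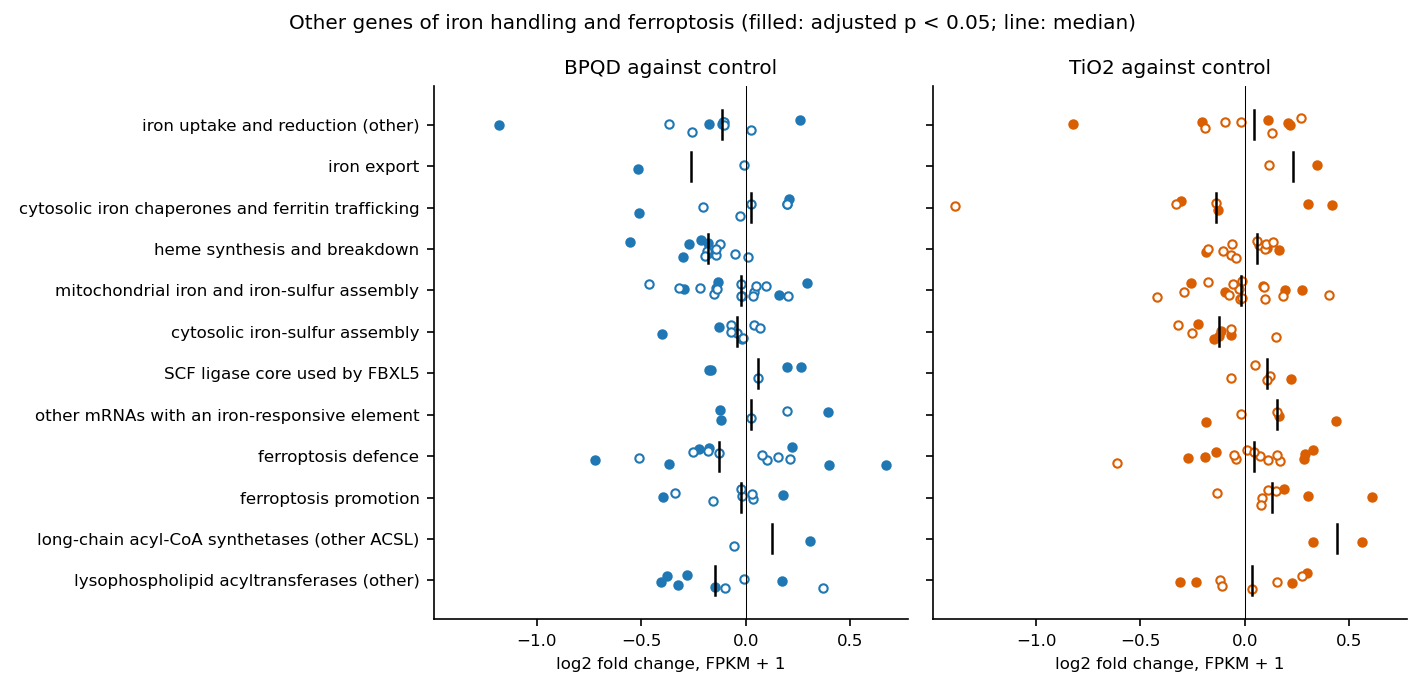
Log2 fold change (FPKM + 1) of the 103 tested genes in 12 lists, 1 point per gene, for BPQD (left) and TiO2 (right) against control; filled points have a limma adjusted p below 0.05 and the black line is the median of the list. SCARA5 (-1.18 and -0.82) is the filled point farthest to the left in both panels, and of the heme genes under BPQD 6 are filled, all below 0.

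Genes with the pattern most like a member over the 9 input libraries were found by Pearson correlation of log2(FPKM + 1), given as a description. The libraries share their groups, so any gene with the same order of group means scores high. The genes were picked over these same libraries, so a low library or a direction shared with the member follows from that choice. It is no separate evidence about the member. For FTH1 these were RAB8B (r = 0.978), CD47 (0.973) and ZCCHC17 (0.968), and each was lowest in control replicate 2, as FTH1 was. RAB8B stood at 4.83 FPKM in that library, against 5.92 and 5.49 in the other controls. For FTL they were FDPS (0.993), TGM2 (0.993) and S100A11 (0.991), each called lower under BPQD and higher under TiO2. TGM2, a transglutaminase, moved more than FTL, with -0.58 ± 0.03 under BPQD and 0.70 ± 0.03 under TiO2. For TFRC they were MAPK8 (0.954), SRSF7 (0.940) and SH2B3 (0.930), and each was lowest in BPQD replicate 3, at 3.68, 28.9 and 1.98 FPKM.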

How the data were processed

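The 9 input libraries have a deposited table of FPKM per gene, made by the authors; per the submitters' processing notes HISAT2 and StringTie 1.3.0 were used and mm10 is listed. The gene IDs are human, and all 24557 symbols found in RefSeq GRCh38.p14 lay on the same chromosome (87.8% with a start within 1000 bases), so coordinates are read as GRCh38. Read depth is unknown, so precision rests on 3 libraries per group. The deposited peak tables hold, per the file headers, the authors' log2 fold change, p-value and q-value, and a log10 FDR used as a score; the sources used here do not name the peak caller or any pooling. Their 12 columns of FPKM were not used.

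Expression was fitted with limma 3.58.1 (R 4.3.3) on log2(FPKM + 1) over all 9 libraries with a variance trend, for 12224 genes (mean FPKM no lower than 1), two-sided, with Benjamini-Hochberg adjusted p below 0.05 over all of them. The pseudocount of 1 understates the change of low genes. The script was tested on simulated data. Alternatives covered the pseudocount, filters, scaling, libraries, replicate numbers and trend. Genes were named by a rule: all 10 genes, the up to 3 largest called changes of each list per material (not all of them are printed), the 2 highest pseudogenes, and the 3 genes most like FTH1, FTL and TFRC; CP, HMOX1, EPAS1 and others that 2 comparisons name appear under both, and the GPX4 and SLC7A11 levels under both materials are given for context. The genes and lists were chosen with earlier results of these data known. A gene that this rule names is not reported here.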

Additional observations from a re-analysis of the deposited data

How the results depend on the processing

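Of 30 results for the 10 genes (3 comparisons each), 14 kept their side of the threshold under all alternatives: 9 of these also kept their direction, while 5, none of them called, took both signs. Only FTH1 under BPQD was called in the opposite direction (0.06 with all libraries, -0.21 without control replicate 2 and up to 0.26 without another library). The number of genes called under BPQD was 5384, and 3495 at a mean FPKM of at least 5; for BPQD against TiO2 it was 4596 and 2832, fewer genes being tested there. Leaving out 1 library gave 4690 to 5276 genes under BPQD, 3754 to 4503 under TiO2 (4614 with all) and 3923 to 4456 between the materials. Of the 10 genes, 2 were called under BPQD (5 with TPM, 1 with quantile normalization, 2 to 3 without 1 library), 5 under TiO2 (3 with no filter on low values, 3 without TiO2 replicate 1 or 2, 3 to 6 without 1 library) and 4 between the materials (3 to 5 without 1 library). For the calls lost, the cause was not tested. Quantile normalization replaces levels by ranks.

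The libraries showed no sign of pairing by replicate number. The 9 correlations between same-numbered libraries of different groups lay between -0.08 and 0.07. In 2 of these 9 pairs the same number was the best match. With the replicate number as a block, 4996 genes were called under BPQD, 4160 under TiO2 and 4150 between the materials, and 2, 6 and 4 of the 10 genes. For the peaks, the authors' p below 0.01 or FDR below 0.05 left 4 of 6 under BPQD and 3 of 5 under TiO2. The share of all listed peaks left by these thresholds was not computed. Precision is limited by 3 libraries per group and an unknown read depth.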
